A study of Homo sapiens with 30 samples.

Results

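The 8 genes described here encode the glucocorticoid receptor itself (NR3C1) and 7 genes known in other cells as targets of that receptor: DDIT4, TSC22D3, FKBP5, PER1, KLF9, ERRFI1 and SGK1. They were picked by name from the 38526 genes counted in a first experiment and the 36291 genes counted in a retransplantation experiment, and all 8 were present in both. The choice was made with results of these data in view: DDIT4 had been seen to be higher in liver metastases than in primary tumours, so that difference is described below without a test. The cells were MDA-MB-231, a human triple-negative breast cancer line, marked with LeGO barcodes, which are genetic tags that identify the descendants of 1 cell, and grown in immunodeficient NSG mice. Subclone 13 and subclone 2 were each sorted from lung metastases, liver metastases and primary tumours of mice 1, 2 and 3, which gave 6 groups of 3 samples. The retransplantation experiment held subclone 2 from samples labelled lung or liver metastasis of mice 4, 5 and 6, with no tumour group. Whether lung and liver there name the source of the injected cells or the site of outgrowth is not given by the labels. All groups shared the line, the barcoding and the host strain, no hormone treatment is named in the labels, and each subclone is a single clone, so any difference between the subclones is one between these clones.

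Glucocorticoids, chiefly corticosterone in mice, enter cells and bind a receptor held in the cytoplasm by chaperones. The bound receptor moves to the nucleus, where it sits on short DNA elements near genes it induces, and it also restrains inflammatory genes. Several of its targets feed back: FKBP5 lowers the receptor's affinity for hormone, TSC22D3 (also called GILZ) blocks inflammatory transcription factors, and DDIT4 (also called REDD1) restrains the growth kinase complex TORC1. All of these genes also answer to other signals, so their levels are no direct reading of the receptor.

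The 18 samples of the first experiment had total counts of 11.8 to 82.2 M (1e+06 counts) and the 6 retransplantation samples of 23.4 to 32.3 M. Levels are given as CPM, counts per 1e+06 counts of the library, with totals scaled by TMM within each experiment, so the experiments are on separate scales. The smallest count of any of the 8 genes in a sample was 363, for DDIT4. Genes that define MDA-MB-231 (6 of 6 detected) summed to 5801 to 12442 CPM, and 6 genes listed as lacking in this line summed to 20.7 to 81.3 CPM. The largest of those 6 in every group was EPCAM, which was detected at group means of 12.3 to 44.2 CPM. The kit does not keep strand, and DDIT4 shares 847 exonic bases with the antisense gene DDIT4-AS1, which is not analysed here.

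Among the annotated promoters none of the 8 genes carried a full glucocorticoid response element. On GRCh38 and GENCODE v29, all 8 genes are protein-coding: DDIT4 lies on chromosome 10 from 72273920 to 72276036 (plus strand), FKBP5 on chromosome 6 from 35573585 to 35728583, SGK1 on chromosome 6 from 134169246 to 134318112, and PER1 on chromosome 17 from 8140472 to 8156506. KLF9 lies on chromosome 9 from 70384597 to 70414624, ERRFI1 on chromosome 1 from 8004404 to 8026308, NR3C1 on chromosome 5 from 143277931 to 143435512, and TSC22D3 on chromosome X from 107713221 to 107777342, and all but DDIT4 are on the minus strand. RefSeq promoter windows of build GRCh38.p14, from 250 bases before to 50 bases after a start, were found for all 8 genes, at 20 starts in all (7 for NR3C1, 4 for TSC22D3, 3 for SGK1, 2 for FKBP5 and 1 for each other gene). The promoters of DDIT4, FKBP5 (both starts) and PER1 are shown because they are those of the gene the list was built around, of a feedback gene that moved with organ, and of the clock gene, and because each of those genes has a match to a searched motif. They are written 5′ to 3′ in the direction of transcription, and capitals mark a match to a searched motif.
DDIT4 promoter, chr10:72273674-72273973, plus strand: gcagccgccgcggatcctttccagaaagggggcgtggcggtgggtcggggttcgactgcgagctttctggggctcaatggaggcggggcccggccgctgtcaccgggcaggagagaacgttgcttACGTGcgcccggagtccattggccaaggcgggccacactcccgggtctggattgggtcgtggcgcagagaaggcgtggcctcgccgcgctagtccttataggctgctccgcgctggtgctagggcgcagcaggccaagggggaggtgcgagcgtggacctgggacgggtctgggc
FKBP5 promoter, upstream start, chr6:35728534-35728833, minus strand: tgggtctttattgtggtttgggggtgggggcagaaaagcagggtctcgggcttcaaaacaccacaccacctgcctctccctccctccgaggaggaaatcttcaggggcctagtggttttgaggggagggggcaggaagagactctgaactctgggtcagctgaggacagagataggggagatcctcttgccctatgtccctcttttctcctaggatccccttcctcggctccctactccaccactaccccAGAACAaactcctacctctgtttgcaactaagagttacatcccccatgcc
FKBP5 promoter, downstream start, chr6:35688866-35689165, minus strand: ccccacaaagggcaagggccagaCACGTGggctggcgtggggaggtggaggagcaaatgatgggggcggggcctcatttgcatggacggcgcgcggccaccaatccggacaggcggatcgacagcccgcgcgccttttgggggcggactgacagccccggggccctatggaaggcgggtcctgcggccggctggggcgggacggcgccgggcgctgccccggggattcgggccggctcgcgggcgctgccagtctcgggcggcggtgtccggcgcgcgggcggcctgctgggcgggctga
PER1 promoter, chr17:8152355-8152654, minus strand: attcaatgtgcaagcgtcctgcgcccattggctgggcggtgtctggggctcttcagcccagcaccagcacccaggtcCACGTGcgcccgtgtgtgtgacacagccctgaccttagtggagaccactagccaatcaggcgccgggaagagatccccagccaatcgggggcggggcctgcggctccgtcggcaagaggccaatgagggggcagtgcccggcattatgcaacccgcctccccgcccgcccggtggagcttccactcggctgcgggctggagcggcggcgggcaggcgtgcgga

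The glucocorticoid response element was searched on both strands as AGAACA, a gap of 3 bases, and TGTTCT. It was found exactly in 1 of 35116 windows of all genes and with up to 2 mismatches outside the gap in 1.41% of them, and in 0 of the 20 windows of the 8 genes. One arm of it, TGTTCT, stood in 2 of the 20 windows, at the upstream start of FKBP5 (marked as its reverse complement) and at 1 start of SGK1, against 14.8% of all windows. The E-box CACGTG, bound by clock proteins, stood in the PER1 window and in that of the downstream FKBP5 start, against 7.26% of all windows. The hypoxia core ACGTG, which overlaps every E-box, stood in 4 of the 20 windows (DDIT4, FKBP5, PER1 and SGK1, 1 each), against 21.4% of all. The cAMP response element TGACGTCA and the C/EBP-ATF element TGATGNAAN were in 0 of the 20, against 1.85% and 3.61% of all windows. These windows reach no further than 250 bases, and a match or its absence describes these letters only.

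Per kilobase of exon, ERRFI1 was by far the most abundant of the 8 in the first experiment, with a mean of 346 CPM per kilobase (range 206 to 739 over 18 samples). DDIT4 followed with 76.9 (10.9 to 237) and TSC22D3 with 50.4 (15.1 to 108). SGK1, PER1 and NR3C1 had 27.7, 26.8 and 24.4 CPM per kilobase, and KLF9 and FKBP5 had 13.1 and 9.04. The ERRFI1 range lay above those of 6 of the others and overlapped that of DDIT4 only, while the ranges of every pair of neighbours further down the order overlapped. In the plot of levels by sample the organ differences of DDIT4 and the mouse differences of TSC22D3 can be compared.

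**Figure D1:**
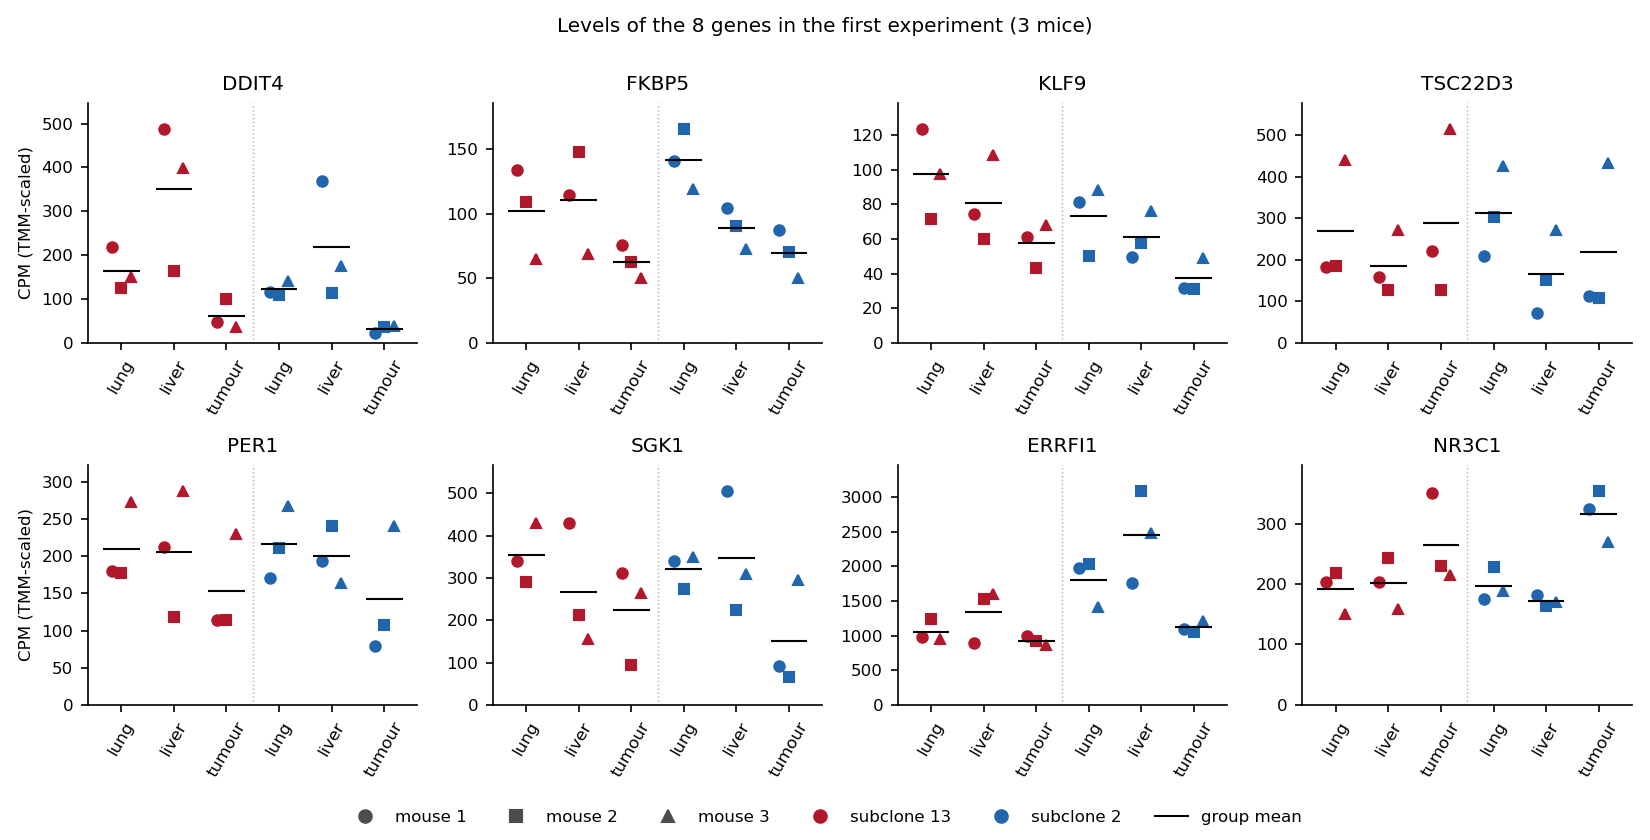
Level of each of the 8 genes in the 18 samples of the first experiment, as TMM-scaled CPM on linear axes that start at 0; each point is 1 sample, its shape the mouse, its colour the subclone, and each line the mean of 3. DDIT4 was 36.4 to 489 CPM in subclone 13 and 22.5 to 369 CPM in subclone 2, and TSC22D3 was highest in mouse 3 in each of the 6 groups.

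DDIT4, the inhibitor of TORC1, was higher in lung and liver metastases than in tumours of both subclones. In subclone 13 it had 218, 125 and 151 CPM in lung metastases of mice 1, 2 and 3, then 489, 165 and 399 CPM in liver metastases, against 47.6, 98.9 and 36.4 CPM in tumours. In subclone 2 it had 115, 110.0 and 142 CPM in lung metastases, then 369, 113 and 176 CPM in liver metastases, against 22.5, 35.5 and 38.0 CPM in tumours. In both subclones every metastasis sample, of lung or liver, was above every tumour sample, while lung and liver samples overlapped. Since these are bulk samples, fewer cells that express a gene and less RNA per cell cannot be told apart.

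Against tumours, DDIT4 in liver metastases differed by 2.52 ± 0.47 (log2 fold change ± SE) in subclone 13 and by 2.77 ± 0.48 in subclone 2, the contrast that led to its choice. The change in lung metastases, which shares the tumour samples, was 1.43 ± 0.45 in subclone 13 (edgeR adjusted p = 0.263) and 1.93 ± 0.46 in subclone 2 (edgeR adjusted p = 0.0869). Because the lung, liver and tumour samples of a number share a mouse, each comparison was also fitted with mouse as a term. In that fit the lung change of DDIT4 was 1.90 ± 0.42 in subclone 2 (edgeR adjusted p = 0.0175). It was 1.35 ± 0.42 in subclone 13 and did not pass there (edgeR adjusted p = 0.099). The tumour samples entered the choice of DDIT4, so its lung comparisons with them are no test apart from that choice. Within single mice the log2 ratio of liver over tumour ran between 0.73 and 4.04 over 6 pairs, and that of lung over tumour between 0.34 and 2.36, all above 0. The narrowest of both belonged to subclone 13 of mouse 2, whose tumour sample had the highest DDIT4 of the 6 tumours. Left out, that tumour sample gave 3.06 in liver and 1.96 in lung for subclone 13. With any 1 sample or mouse left out, the liver difference of DDIT4 lay between 2.06 and 3.36 in subclone 13 and between 1.97 and 3.13 in subclone 2. These refits reuse the samples that led to its choice, so they only describe how far single samples moved the estimate. The libraries summed for subclone 13 of mouse 1, from sequencing runs 1, 2 and 3, varied in DDIT4 by a coefficient of variation of 8.86% in tumour to 13.0% in liver, less than the organ differences of that mouse.

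Summed endothelial markers (6 of 6 in the table) were at 25.7 to 37.5 CPM in liver samples of subclone 2, above all its tumours at 15.3 to 20.9 CPM, and at 19.8 to 41.8 CPM in liver samples of subclone 13, overlapping its tumours at 17.1 to 23.7 CPM. In lung metastases they summed to 12.5 to 15.8 CPM in subclone 13 and 13.8 to 18.3 CPM in subclone 2, where 1 of the 6 was at 0. Fibroblast and smooth muscle markers (6 of 6) were at 34.4 to 95.0 CPM in liver samples of subclone 13 against 67.1 to 129 CPM in its tumours, and at 19.8 to 46.6 CPM in liver samples of subclone 2, below all its tumours at 63.3 to 136 CPM. Leukocyte markers (6 of 6, led by CD74) were at 273 to 556 CPM in liver samples of subclone 13 against 433 to 786 CPM in its tumours, and at 87.3 to 246 CPM against 98.1 to 141 CPM in subclone 2, overlapping in both. Hepatocyte markers (5 of 6 in the table, most of the sum from SERPINA1) did not stand higher in liver samples of subclone 2, with 29.5 to 62.7 CPM against 61.0 to 72.0 CPM in tumours, and in subclone 13 they had 149 to 230.2 CPM in liver samples against 129 to 227 CPM in tumours. In lung metastases hepatocyte markers were at 89.7 to 99.3 CPM in subclone 13, below every liver and tumour sample, and at 30.3 to 92.4 CPM in subclone 2. The hosts were mice and the counts are of human genes, so these sums need not gauge host cells. SERPINA1 had a mean of 178 CPM in liver samples and 167 CPM in tumours of subclone 13. The part of these cell type markers in the DDIT4 values was not tested.

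Set against liver, DDIT4 in lung metastases was lower in 3 of 3 mice in subclone 13 and in 3 of 3 mice in subclone 2. The log2 ratio of lung over liver within a mouse ran between -1.41 and -0.40 in subclone 13 and between -1.68 and -0.03 in subclone 2. The fitted difference of -1.09 ± 0.45 in subclone 13 (edgeR adjusted p = 0.9999) did not pass the test over all genes, nor did that of -0.84 ± 0.45 in subclone 2 (edgeR adjusted p = 0.599). The liver samples here entered the choice of DDIT4, so neither the pairs nor the fits are a test apart from that choice. The retransplantation samples, which had no part in choosing DDIT4, gave 60.6, 38.4 and 85.1 CPM in lung samples of mice 4, 5 and 6, against 109, 224 and 166 CPM in liver samples. Every lung sample was below every liver sample, with log2 ratios within a mouse between -2.54 and -0.84. The fitted difference was -1.44 ± 0.34 and did not pass over all genes (edgeR adjusted p = 0.196, and 0.12 with mouse as a term), while the DESeq2 adjusted p was 0.00473. In edgeR 0% of the 17549 genes tested passed in that comparison, and 0.479% with mouse as a term, while at an unadjusted p under 0.05 there were 2198 and by DESeq2 403. Without mouse 5, whose pair was the widest, the fitted difference was -0.91. Hepatocyte markers summed to 13.5 to 27.1 CPM in the lung samples against 37.9 to 76.4 CPM in the liver samples, endothelial markers to 20.1 to 28.8 CPM against 9.31 to 23.1 CPM, and leukocyte markers to 83.8 to 118 CPM against 31.4 to 71.9 CPM. The hepatocyte and leukocyte sums, led by SERPINA1 and CD74, did not overlap between the organs. As counts of human genes from mouse hosts they need not gauge host cells, and their part in the DDIT4 values was not tested. The difference between the experiments in lung over liver was -0.59 ± 0.61 for DDIT4 (edgeR adjusted p = 0.951), so no difference between the experiments was shown, and with this error a like difference was not shown either.

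**Figure D2:**
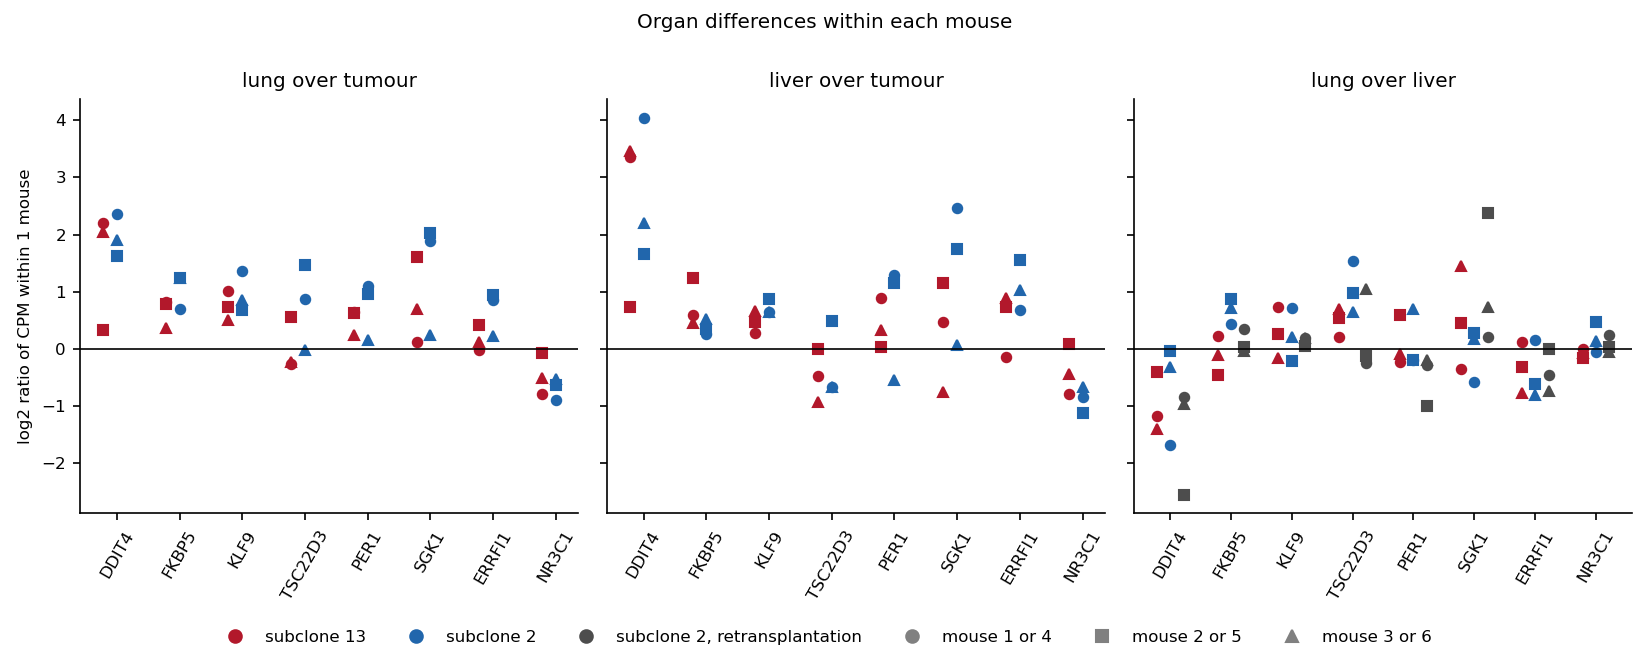
log2 ratio of CPM between organs within 1 mouse, for lung over tumour, liver over tumour and lung over liver; each point is 1 mouse and subclone, and points above 0 are higher in the organ named first. DDIT4 lies above 0 in 6 of 6 pairs against tumour in each metastatic organ and below 0 in 9 of 9 pairs of lung over liver. Liver and tumour samples of the first experiment entered the choice of DDIT4, and each mouse there gave a pair per subclone. Only the 3 retransplantation pairs of lung over liver had no part in that choice.

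FKBP5, the receptor co-chaperone, and KLF9, a zinc finger repressor induced early by the hormone, were higher in metastases than in tumours in every mouse. FKBP5 in subclone 13 had 134, 109 and 64.6 CPM in lung metastases, then 115, 148 and 69.1 CPM in liver metastases, against 75.7, 62.9 and 50.3 CPM in tumours. The subclone 2 values were 140.4, 166 and 119 CPM in lung metastases, then 104, 90.3 and 72.6 CPM in liver metastases, against 87.0, 70.5 and 50.5 CPM in tumours. Lung and tumour samples of subclone 2 did not overlap, while the other FKBP5 groups overlapped their tumours. Mouse 3 had the lowest FKBP5 in each of the 6 groups. Without the mouse term the FKBP5 difference was 1.04 ± 0.31 in lung metastases of subclone 2 (edgeR adjusted p = 0.198). Fitted with mouse as a term it rose there by 1.06 ± 0.19 (edgeR adjusted p = 0.00331) and in liver metastases of subclone 13 by 0.78 ± 0.18 (edgeR adjusted p = 0.0327), and it was higher in lung than in liver metastases of subclone 2 by 0.68 ± 0.18 (edgeR adjusted p = 0.0493). Within a mouse its log2 ratio to tumour was above 0 in 6 of 6 pairs for lung (0.36 to 1.24) and in 6 of 6 for liver (0.26 to 1.24).

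KLF9 had 124, 71.6 and 97.5 CPM in lung metastases of subclone 13, then 74.6, 60.003 and 108 CPM in liver metastases, against 61.2, 43.1 and 68.2 CPM in tumours. For subclone 2 they were 81.0, 50.2 and 88.3 CPM in lung metastases, then 49.5, 57.8 and 76.2 CPM in liver metastases, against 31.5, 31.3 and 48.8 CPM in tumours. Lung samples were above all tumours in both subclones, and liver samples in subclone 2. KLF9 rose with mouse as a term in lung metastases of both subclones, by 0.78 ± 0.20 in subclone 13 (edgeR adjusted p = 0.0372) and by 0.96 ± 0.20 in subclone 2 (edgeR adjusted p = 0.0112). Without that term the adjusted p was 0.454 in subclone 13 and 0.231 in subclone 2. In liver metastases of subclone 2 the change with mouse as a term was 0.74 ± 0.20 (edgeR adjusted p = 0.0662).

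TSC22D3, the anti-inflammatory leucine zipper protein, differed more between mice than between organs. In subclone 13 it had 183, 186 and 440.2 CPM in lung metastases, then 158, 127 and 271 CPM in liver metastases, against 220.4, 126 and 517 CPM in tumours. In subclone 2 it had 208, 302 and 427 CPM in lung metastases, then 71.8, 153 and 273 CPM in liver metastases, against 114, 109 and 434 CPM in tumours. Mouse 3 was the highest in all 6 groups, and all organ groups overlapped. All samples of mouse 3 were from sequencing run 3, so mouse 3 and that run cannot be told apart. Subclone 13 of mouse 1, and no other sample, was sequenced in runs 1, 2 and 3. In those 9 libraries TSC22D3 had, on total counts, 162 CPM in the lung library from run 3 beside 149 and 161 CPM in those from runs 1 and 2, 146 CPM in liver beside 116 and 140 CPM, and 204 CPM in tumour beside 194 and 209 CPM. Its fitted changes against tumour were -0.09 ± 0.60 in lung and -0.63 ± 0.60 in liver for subclone 13, and 0.51 ± 0.60 in lung and -0.40 ± 0.60 in liver for subclone 2, and none passed. With mouse as a term the lung change in subclone 2 was 0.77 ± 0.28 (edgeR adjusted p = 0.154). Within a mouse TSC22D3 was higher in lung than in liver in 3 of 3 mice in both subclones. The log2 ratio was 0.64 to 1.54 in subclone 2 and 0.21 to 0.70 in subclone 13. In the retransplantation samples it was higher in lung in 1 of 3 mice.

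PER1, a clock repressor that the hormone also induces, had 180.0, 177 and 272 CPM in lung metastases of subclone 13, then 212, 118 and 288 CPM in liver metastases, against 114, 115 and 229.7 CPM in tumours. Subclone 2 had 170.0, 211 and 267 CPM in lung metastases, then 194, 241 and 164 CPM in liver metastases, against 79.0, 108 and 240.0 CPM in tumours. The groups overlapped, although lung was above tumour in each of 6 pairs from 1 mouse, by 0.16 to 1.11 on the log2 scale. No organ comparison of PER1 passed the test with or without the mouse term.

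SGK1, a kinase that regulates ion channels, had 339, 291 and 429.5 CPM in lung metastases of subclone 13, then 430.0, 211 and 157 CPM in liver metastases, against 312, 95.5 and 264 CPM in tumours. Subclone 2 had 339, 274 and 349 CPM in lung metastases, then 506, 225 and 309 CPM in liver metastases, against 91.5, 66.9 and 295 CPM in tumours. Lung was above tumour in 6 of 6 pairs from 1 mouse (0.12 to 2.03 on the log2 scale), but the groups overlapped. The change in subclone 2 was 1.08 ± 0.52 in lung (edgeR adjusted p = 0.536) and 1.20 ± 0.52 in liver (edgeR adjusted p = 0.649), and with mouse as a term 1.21 ± 0.40 and 1.26 ± 0.40 (edgeR adjusted p = 0.108 and 0.14). Without the tumour of mouse 3 these changes of subclone 2 were 2.01 in lung and 2.13 in liver (edgeR adjusted p = 0.153 for both).

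ERRFI1, a feedback inhibitor of the EGF receptor, rose in liver metastases of subclone 2 with mouse as a term. It had 1977, 2036 and 1415 CPM in lung metastases and 1765, 3095 and 2484 CPM in liver metastases of subclone 2, against 1093, 1057 and 1209 CPM in tumours, with no overlap of either organ with the tumours. In subclone 13 it had 979, 1235 and 946 CPM in lung metastases and 902, 1527 and 1609 CPM in liver metastases, against 993, 921 and 863 CPM in tumours, and these groups overlapped. The liver change in subclone 2 was 1.13 ± 0.26 (edgeR adjusted p = 0.103), and 1.10 ± 0.22 with mouse as a term (edgeR adjusted p = 0.0123). The lung change in subclone 2 was 0.69 ± 0.26 (edgeR adjusted p = 0.378).

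NR3C1, the receptor gene, ran the other way. It had 204, 218 and 151 CPM in lung metastases of subclone 13, then 203, 243 and 159 CPM in liver metastases, against 351, 229.8 and 215 CPM in tumours. In subclone 2 it had 175, 228 and 188 CPM in lung metastases, then 182, 164 and 170.0 CPM in liver metastases, against 324, 354 and 269.6 CPM in tumours. All metastases of subclone 2 were below all its tumours, while those of subclone 13 overlapped theirs. NR3C1 fell with mouse as a term in liver metastases of subclone 2, by 0.86 on the log2 scale (SE 0.19, edgeR adjusted p = 0.0197), and the adjusted p was 0.196 without that term. In lung metastases of subclone 2 the change was -0.68 ± 0.24 (edgeR adjusted p = 0.308, and 0.0568 with mouse as a term).

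**Figure D3:**
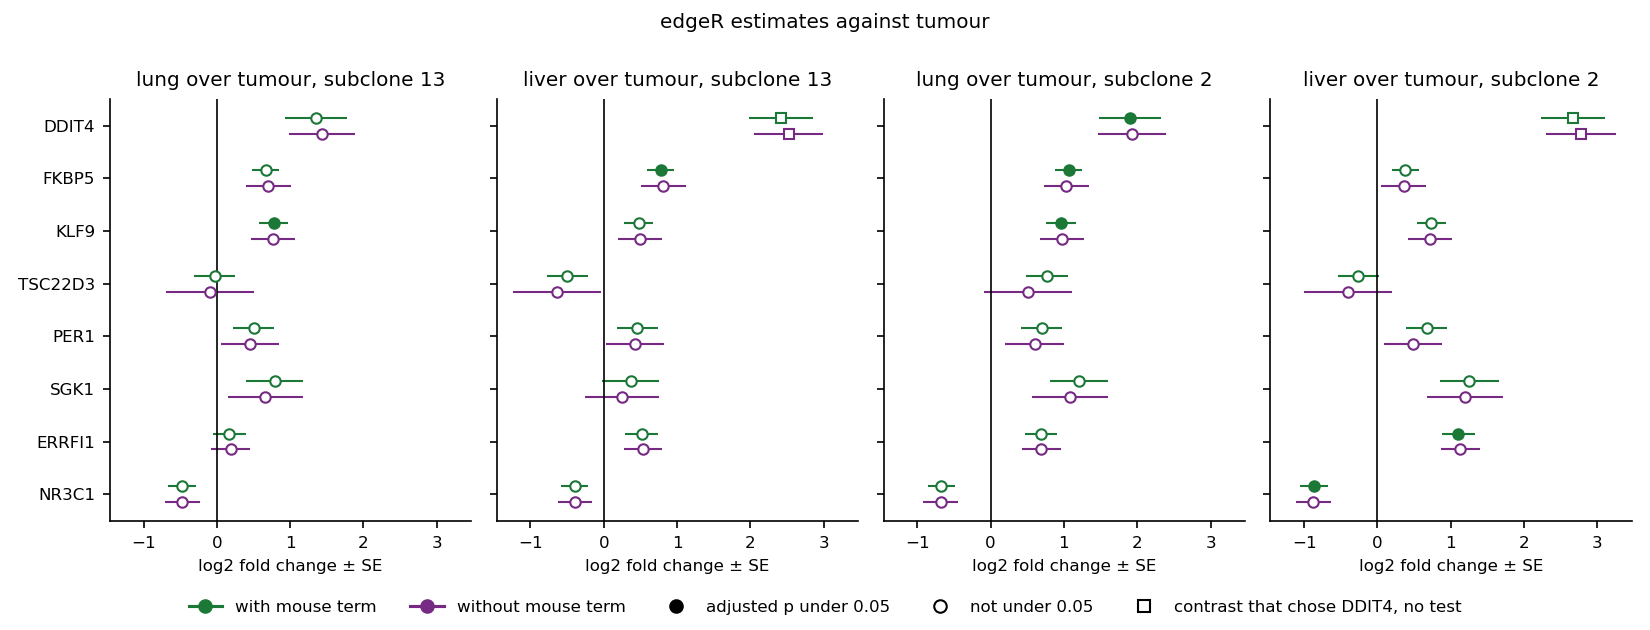
edgeR log2 fold change of each gene in lung and liver metastases over tumours of the same subclone, with bars of 1 SE; green points are fits with mouse as a term, purple points fits without it, filled circles have an adjusted p under 0.05 over 17418 genes, and squares mark the contrast that chose DDIT4, shown without a test. The DDIT4 estimates in liver are 2.52 in subclone 13 and 2.77 in subclone 2 without the mouse term, and KLF9 is filled in lung of both subclones with it. The DDIT4 points in lung use tumour samples that entered its choice.

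Counted over the 8 genes, 0 passed in lung over tumour of subclone 13, where 0.419% of all genes passed, and 1 with mouse as a term, where 2.89% did. In liver over tumour of subclone 13, DDIT4 set aside, 0 of the other 7 passed (0.385% of all genes) and 1 with mouse as a term (1.83%). In lung over tumour of subclone 2, 0 of the 8 passed (0.436%) and 3 with mouse as a term (3.05%). These were FKBP5, KLF9 and DDIT4, the last against tumour samples that entered its choice. In liver over tumour of subclone 2, 0 of the 7 other than DDIT4 passed (0.287%) and 2 with mouse as a term (1.68%). The comparisons share their tumour samples within a subclone, so the counts are not separate pieces of evidence. In lung over liver, 0 passed in subclone 13 (0% of all genes, and 0.276% with mouse as a term) and 0 in subclone 2 (0.023%), where with mouse as a term 1 passed (2.95%). In lung over liver of subclone 13, where edgeR called 0 of 17418 genes, 792 lay under 0.05 before adjustment and 59 passed in DESeq2.

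The share of the variance of log2 CPM over the 18 samples that went with organ was 75.3% for DDIT4, 58.7% for NR3C1, 47.9% for FKBP5, 44.9% for KLF9, 37.2% for ERRFI1 and 35.3% for SGK1, against a median of 13.2% over all genes tested. PER1 and TSC22D3 had 27.5% and 16.1%. The share that went with mouse was 63.1% for TSC22D3, 35.4% for PER1 and 31.9% for FKBP5, against 1.80% for DDIT4 and a median of 27.5% over all genes. Subclone took 36.0% for ERRFI1 and 19.9% for KLF9, and 6.83% or less for the other 6, beside a median of 4.91%. These shares describe the samples that entered the choice of DDIT4. In 15 of the 18 the mouse number was also the number of the sequencing run, and the other 3, of subclone 13 of mouse 1, are sums over runs 1, 2 and 3.

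**Figure D4:**
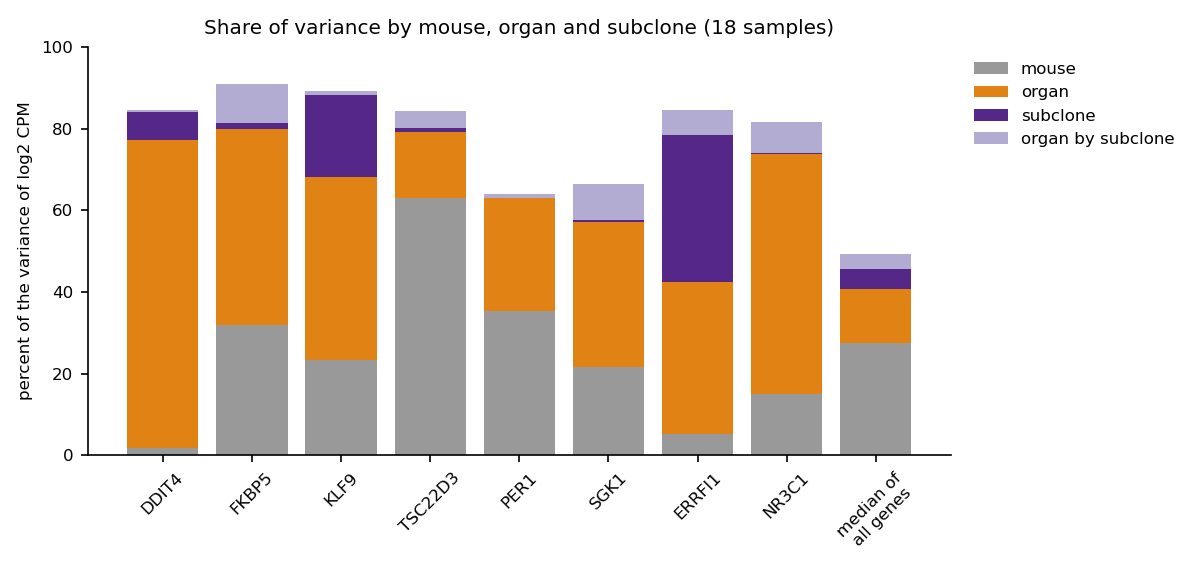
Share of the variance of log2 CPM over the 18 samples of the first experiment that went with mouse, organ, subclone and organ by subclone, in percent, 1 bar per gene, with the median over all genes tested at the right; the rest up to 100% is residual. Organ takes 75.3% for DDIT4 and mouse 63.1% for TSC22D3.

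Between the subclones, set side by side in the same organ of the same mouse, KLF9 was higher in subclone 13 in 9 of 9 pairs (0.05 to 0.96 on the log2 scale) and ERRFI1 lower in 9 of 9 (-1.02 to -0.14). DDIT4 was higher in subclone 13 in 8 of 9 pairs. None of the 8 passed the test in lung, liver or tumour (0 of 8 each, where 0.184%, 0.247% and 0.109% of all genes passed). With mouse as a term 0 of 8 passed as well, where 1.54%, 1.5% and 0.505% of all genes did. ERRFI1 came nearest, with -0.78 ± 0.26 in lung and -0.86 ± 0.26 in liver without the mouse term (edgeR adjusted p = 0.396 and 0.271), and with it the adjusted p was 0.0852 in lung and 0.0567 in liver, where all samples of subclone 13 were below all of subclone 2. KLF9 and DDIT4 differed by 0.63 ± 0.30 and 0.93 ± 0.45 in tumours (edgeR adjusted p = 0.9996 for both).

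No member's organ change differed between the subclones by the test of that difference. In lung over tumour 0 of 8 passed (0% of all genes, with or without the mouse term), and in liver over tumour 0 of 8 (0%, and 0.00574% with mouse as a term). Before adjustment 138 genes lay under 0.05 in lung and 297 in liver, and in DESeq2 0 passed in lung and 3 in liver. For DDIT4 the change in subclone 13 minus that in subclone 2 was -0.50 ± 0.63 in lung and -0.25 ± 0.63 in liver. With errors larger than the estimates, neither a difference nor a like change was shown. Between the experiments 0 of 8 differed in lung over liver, where 0.00507% of all genes passed and 0.071% with mouse as a term.

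In the retransplantation samples the other 7 genes overlapped between lung and liver. The share of all genes that did not overlap there was not counted, so the separation of DDIT4 only describes these samples. SGK1 had 1428, 1125 and 2031 CPM in lung samples of mice 4, 5 and 6, against 1231, 217 and 1227 CPM in liver samples, with liver of mouse 5 set apart from the other 5. TSC22D3 had 300.2, 378 and 719.6 CPM in lung samples, against 357, 411 and 346 CPM in liver samples, with lung of mouse 6 the highest. ERRFI1 had 953, 929 and 1452 CPM in lung samples against 1312, 932 and 2407 CPM in liver samples, and PER1 had 132, 194 and 287 CPM against 161, 386 and 329.7 CPM, so that both were at least as high in liver in each mouse.

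FKBP5 had 59.96, 40.3 and 111 CPM in lung samples against 47.2, 39.2 and 114 CPM in liver samples, and KLF9 had 45.6, 91.0 and 111 CPM against 40.0, 87.8 and 97.0 CPM. For both genes the mice differed by more than the organs. NR3C1 had the narrowest range, with 149, 155 and 153 CPM in lung samples against 125, 151 and 158 CPM in liver samples. None of the 8 passed, with or without the mouse term.

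**Figure D5:**
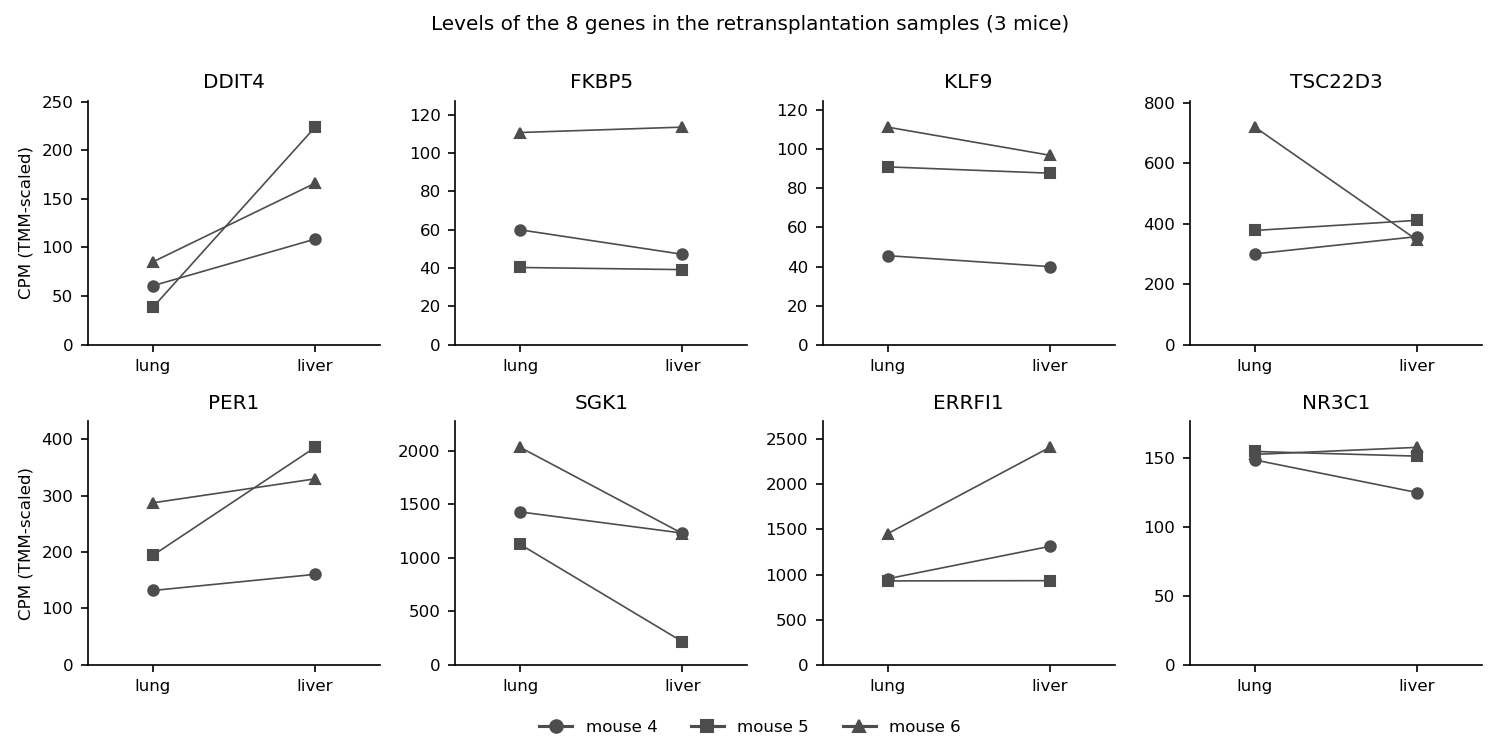
Level of each gene in the 6 retransplantation samples of subclone 2, as TMM-scaled CPM on linear axes that start at 0; each line joins the lung and liver samples of 1 mouse. DDIT4 was lower in lung in all 3 mice (38.4 to 85.1 CPM, against 109 to 224 CPM in liver), while SGK1 was at 217 CPM in liver of mouse 5 and at 1125 CPM or more in the other 5 samples.

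Genes whose log2 CPM over the 18 samples was most like that of each member were ranked among 11024 genes with a mean of at least 5 CPM, as a description: the samples share mice, runs and organs. Closest to DDIT4 were DUSP5, a phosphatase of ERK (r = 0.90), PPP1R3B, a glycogen phosphatase subunit (0.89), SPRY1, an inhibitor of ERK signalling (0.88), SLCO4A1-AS1 (0.87) and ARRDC3, an arrestin-like protein (0.87). With mouse means removed these values were 0.92, 0.90, 0.89, 0.88 and 0.87. Closest to TSC22D3 were ATF3 and FOSB, both immediate early transcription factors (0.93 and 0.90), and DNAAF2 (0.87), and with mouse means removed the values were 0.81, 0.74 and 0.69. Closest to SGK1 were EGR1, MYC and FOS (0.92, 0.86 and 0.86), all early response transcription factors.

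KLF10, a paralog, and SOCS3, a feedback inhibitor of STAT signalling, were closest to KLF9 (0.90 and 0.87), followed by PHETA2 (0.87). FKBP5 was most like ZEB1-AS1, BLVRA, a biliverdin reductase, and ALG6, a glucosyltransferase (0.81, 0.81 and 0.78), PER1 like TRERF1 and SLC2A4RG (0.89 and 0.87), ERRFI1 like DENND2D, METTL15 and FMO5 (0.86, 0.83 and 0.83), and NR3C1 like VGLL3, MBNL2 and FRMD6 (0.87, 0.86 and 0.84). Among the 8 genes themselves the values farthest from 0 were negative and all of NR3C1, with PER1 (-0.74), DDIT4 (-0.71) and KLF9 (-0.70), and with mouse means removed they were -0.69, -0.78 and -0.66. The highest positive value was that of KLF9 with PER1 (0.64), then KLF9 with SGK1, KLF9 with DDIT4 and PER1 with TSC22D3 (0.62 each), the last of which was 0.30 with mouse means removed. With mouse means removed the highest was PER1 with SGK1 (0.70, and 0.61 before).

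Of 27 other genes known to be induced by glucocorticoids, 26 were tested, and a few rose or fell in the metastases. DUSP1, a phosphatase of MAP kinases, had means of 1374 CPM in lung and 1385 CPM in liver metastases of subclone 13, against 298 CPM in tumours, and means of 1283 and 1111 CPM in subclone 2, against 226 CPM. It rose by 2.21 ± 0.44 in lung and 2.22 ± 0.44 in liver of subclone 13 (edgeR adjusted p = 0.0352 and 0.0316) and by 2.504 ± 0.45 in lung and 2.30 ± 0.45 in liver of subclone 2 (edgeR adjusted p = 0.0159 and 0.031). RASD1, a small GTPase named for its induction by dexamethasone, rose by 2.68 ± 0.53 in lung metastases of subclone 2 (236 against 36.7 CPM, edgeR adjusted p = 0.0291), and SCNN1A, a subunit of the epithelial sodium channel, by 1.35 ± 0.24 (191 against 75.3 CPM, edgeR adjusted p = 0.0159). CRISPLD2, a secreted protein, fell in liver metastases of subclone 2, with 1.80 CPM against 15.1 CPM in tumours (-3.02 ± 0.54, edgeR adjusted p = 0.0195).

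Without the mouse term, 1 of the 26 was called higher and 0 lower in lung of subclone 13 (where 0.419% of all genes were called) and 1 and 0 in liver (0.385%), and 3 and 0 in lung of subclone 2 (0.436%) and 1 and 1 in liver (0.287%). Once mouse was a term, 4 were called higher and 0 lower in lung of subclone 13 (2.89%) and 3 and 1 in liver (1.83%), and 7 and 0 in lung of subclone 2 (3.05%) and 3 and 2 in liver (1.68%). Among these PDK4, a kinase that inhibits pyruvate dehydrogenase and that FOXO factors also induce, rose in lung of subclones 13 and 2 (1.34 ± 0.24 and 1.27 ± 0.24, edgeR adjusted p = 0.00469 and 0.00675). The gene called lower in liver of subclone 13 was BIRC3 (-2.57 ± 0.56, edgeR adjusted p = 0.0193). Those called lower in liver of subclone 2 were CRISPLD2 and MT1X (-1.28 ± 0.21 for MT1X, edgeR adjusted p = 0.00275). The median log2 fold change of the 26 was 0.42 and 0.57 in lung of subclones 13 and 2, beside 0.03 and 0.05 over all genes, and 0.10 and -0.01 in liver, beside 0.02 and 0.05. In lung over liver it was 0.40 in subclone 13, 0.57 in subclone 2 and 0.33 in the retransplantation samples, where RASD1 was higher in lung by 1.31 ± 0.17 with mouse as a term (edgeR adjusted p = 0.0259). DDIT4 ran the other way there, lower in lung in 9 of 9 pairs. Of these pairs 3 were from the retransplantation, and the rest used liver samples that entered its choice.

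The 13 tested inflammatory genes that glucocorticoids repress had a median of -0.18 and -0.03 in lung over tumour of subclones 13 and 2, and of -2.04 and -1.97 in liver over tumour. In subclone 2 IL11, a cytokine of the IL-6 family, fell in liver metastases to 5.54 CPM, against 57.6 CPM in tumours (-3.39 ± 0.63, edgeR adjusted p = 0.0243), and it was the 1 called without the mouse term, with 0 called in the other 3 comparisons with tumour. With mouse as a term 2 were called lower in liver of each subclone and 0 in lung: CXCL8, a neutrophil chemokine (-2.14 ± 0.51, edgeR adjusted p = 0.0327), and IL6 in subclone 13, and IL11 and IL6 in subclone 2. IL6, whose liver samples overlapped the tumours, is named here after its values were seen. In lung over liver of the retransplantation samples the median was 1.63, and CXCL8 and CXCL1, another such chemokine, were higher in lung with mouse as a term (2.22 ± 0.20 and 2.17 ± 0.15, edgeR adjusted p = 0.0167 and 0.0166). Without that term 0 of the 13 passed there, where 0% of all genes did. Against tumour, 0.287% to 0.436% of all genes passed without the mouse term and 1.68% to 3.05% with it.

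Against tumour, 0.287% to 0.436% of all genes were called without the mouse term and 1.68% to 3.05% with it. At the lower shares 0 called in a list of 10 to 18 genes is no result about that list. Of 18 chaperones and cofactors of the receptor 0 were called in any organ comparison without the mouse term. With it CREBBP and EP300, the histone acetyltransferase coactivators, fell in lung metastases of both subclones, CREBBP by 0.90 (SE 0.19) in subclone 13 and 0.98 (SE 0.19) in subclone 2 (edgeR adjusted p = 0.0145 and 0.00797). In lung of subclone 2, 4 of the 18 were called lower, MED1 and NCOA3 being the others (edgeR adjusted p = 0.0183 and 0.0413). Of 15 clock genes only BHLHE40, a repressor of the clock, was called without the mouse term, in lung (1.36 ± 0.27, edgeR adjusted p = 0.0312) and liver (1.62 ± 0.27, edgeR adjusted p = 0.0131) of subclone 2. With that term BHLHE40 was called higher in liver of subclone 13 as well (0.90 ± 0.22, edgeR adjusted p = 0.0349), and CRY1, another clock repressor, lower there (-0.92 ± 0.19, edgeR adjusted p = 0.0156). Of 12 paralogs of the members KLF10 alone was called without the mouse term, in lung of subclone 2 (1.28 ± 0.26, edgeR adjusted p = 0.0357). The fit with mouse also called KLF10 higher in lung of subclone 13 and in liver of subclone 2 (edgeR adjusted p = 0.00534 and 0.0319), and KLF4 and TSC22D2 lower in liver of subclone 13 (-1.05 ± 0.23 and -0.83 ± 0.21, edgeR adjusted p = 0.0192 and 0.0413). The lists of TORC1 regulators (16 genes), hypoxia-induced genes (12), ATF4 and stress-induced genes (12) and FOXO-induced genes (10), pathways that also control DDIT4 or lie downstream of it, had 0 called against tumour without the mouse term. With it 0 TORC1 regulators were called, while of the hypoxia-induced genes NDRG1 fell in lung of subclones 13 and 2 (-1.14 ± 0.26 and -1.05 ± 0.26, edgeR adjusted p = 0.02 and 0.0308). SLC2A1, a glucose transporter, was called lower in lung of subclone 13, although its lung and tumour samples overlapped (edgeR adjusted p = 0.0271). ANKRD37, also induced by hypoxia, rose in lung and liver of subclone 2, and PFKFB4, an enzyme of glycolytic control, fell in liver of subclone 2. PPP1R15A, a phosphatase subunit of the stress response, fell in liver of subclone 13 (-1.26 ± 0.23, edgeR adjusted p = 0.00455). TXNIP, a FOXO target, fell in lung of subclone 13 (-1.50 ± 0.35, edgeR adjusted p = 0.0224), and PDK4, on the FOXO list too, rose in lung of both subclones and in liver of subclone 2. Without the mouse term the medians ran between -0.56, for hypoxia-induced genes in lung of subclone 13, and 0.29, for ATF4 and stress-induced genes in the same samples.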

How the data were processed

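Counts per gene of 24 libraries of the first experiment and 6 of the retransplantation were deposited by the authors, unnormalized. Per the submitters' processing notes they used bcl2fastq 2.15.0.4, cutadapt, STAR, featureCounts and GRCh38; parameters are not given in the sources used here. Per the labels' protocols the kit was the TruSeq RNA Library Prep Kit v2, which does not keep strand. The 3 libraries each of subclone 13 of mouse 1 were summed per organ. Genes kept by filterByExpr (17418 and 17549; 19721 in the joint fit) were tested with edgeR 4.0.16 (R 4.3.3, TMM, quasi-likelihood, Benjamini-Hochberg over all genes tested, threshold 0.05), all groups in 1 fit, without a mouse term. Samples of 1 mouse deviated together (median correlation 0.327 over 45 pairs, at least 0.140, and at least 0.265 over 3 retransplantation pairs), so the fit with mouse as replicate block stands beside changed calls. DESeq2 1.42.0, RLE, no filter, fewer groups and left-out samples or mice were alternatives. The scripts were tested on simulated data. Members and lists were chosen with earlier results of these data known. Genes outside the 8 were named if called with groups that do not overlap, up to 4 per list and comparison, or by r. IL6 and SLC2A1 were named although their groups overlapped. The share of all genes without overlap between groups was not counted in any comparison, so a lack of overlap only describes the samples. At these depths counting error is small beside the spread between samples.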

Additional observations from a re-analysis of the deposited data

How the results depend on the processing

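Of 1461 single-gene values recomputed over 95 results, 1194 kept their direction and side of the threshold, 156 passed newly, 98 no longer passed and 13 reversed. The number of the 8 genes called is given here with the number called over all genes in brackets. In liver over tumour it includes DDIT4, whose call on the contrast that chose it is no test. In liver over tumour of subclone 13 it was 1 (67), that of DDIT4, and became 2 (318) with mouse as replicate block. With only the groups compared it was 0 (30), and it was 0 to 1 when a sample or mouse was left out. In liver over tumour of subclone 2 it was 1 (50), again DDIT4. It became 2 without the filter (261), 3 with the replicate block (292) and 3 with DESeq2 (251). With only the groups compared it was 0, where 0 of all genes were called, and it was 0 to 1 when samples were left out. In lung over tumour it was 0 in subclone 13 (73) and 0 in subclone 2 (76). It became 1 in subclone 13 without the filter (260), with the block (503) or with DESeq2 (338). In subclone 2 it became 1 without the filter (219), 3 with the block (532), 2 with DESeq2 (359) and 1 with only the groups compared (18). DDIT4 was among the 3 with the block, against tumour samples that entered its choice. In lung over liver of subclone 2 it was 0 (4) and became 1 with the block (514). In the retransplantation it was 0 (0) and became 1 without the filter (718) and 1 with DESeq2 (403). The cause was not tested.

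TSC22D3 reversed with samples left out: its liver change ran between -0.97 and 0.58 in subclone 2 and between -1.01 and 0.10 in subclone 13, and its lung change in subclone 13 between -0.64 and 0.67, each highest without the tumour of mouse 3. The DDIT4 difference between subclones ran between -0.73 and 0.052 in lung, highest without mouse 2, and between -0.86 and 0.30 in liver, highest without the subclone 2 liver of mouse 1. Over all genes the calls without and with the mouse term, and by DESeq2, were 73, 503 and 338 in lung and 67, 318 and 245 in liver of subclone 13 over tumour, 76, 532 and 359 in lung and 50, 292 and 251 in liver of subclone 2 over tumour, and 4, 514 and 253 in lung over liver of subclone 2. In subclone 13 over 2 they were 32, 269 and 220 in lung, 43, 262 and 267 in liver and 19, 88 and 84 in tumour. Scaled to total counts, 63 of 64 group means of the 8 genes moved by less than 1 SD.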
